A study of Mus musculus with 2 samples.

Results

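The Myb peaks at 8 genes of the NF-κB system were examined in bone marrow cells of WT mice depleted of mature lineages (Lin- cells), the fraction in which hematopoietic stem and progenitor cells are concentrated. The genes were the 5 NF-κB subunits *Nfkb1*, *Nfkb2*, *Rel*, *Rela* and *Relb*, and 3 genes grouped here as inhibitors, *Nfkbia*, *Nfkbiz* and *Tnfaip3*. The label is loose for *Nfkbiz*, whose product acts with NF-κB at a subset of its targets. A peak was taken for a gene when its summit lay in the gene body or within 30 kb of it (GENCODE vM21 annotation, mm10), which gave 40 of the 25793 Myb peaks and no peak with more than 1 of the genes.

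There were 2 samples, a precipitate with an anti-Myb antibody and one with nonspecific rabbit IgG, each from Lin- cells labelled WT. In the study's methods WT stands for mice with floxed *Ep300* alleles (*Ep300* fl/fl) and no *Mx1-Cre*, on a C57BL/6 background, and mice of this genotype are among those given poly(I:C), a double-stranded RNA mimic that stimulates innate immune receptors and, through them, NF-κB. Whether the mice of these libraries received it, and their age, is not given in the sources used here. Each had 1 library, the peaks are those of the Myb library called against the IgG library, and the total depth of either library is not given in the peak list. Because there was no replicate, no difference below carries an estimate of the variation between mice, and each interval covers counting error only. For a fold enrichment that is the counting error of the Myb reads, with the background taken as exact. The Lin- fraction was obtained by magnetic depletion to a purity above 80% per the labels, so that it is a mixture of progenitors with remaining mature cells, and a peak list holds no expression with which to check its markers.

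NF-κB is a family of dimeric transcription factors that share the Rel homology domain. In resting cells the dimers are held in the cytoplasm by IκB proteins, and signals from cytokine and innate immune receptors activate the IκB kinase (IKK) complex, which marks IκB for destruction and releases the dimers to the nucleus. Several genes of the system, including *Nfkbia* and *Tnfaip3*, are themselves NF-κB targets and form negative feedback loops. In bone marrow the pathway is known for its part in emergency myelopoiesis, lymphoid development and the survival of progenitors.

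The sequence at the strongest peak of each gene is printed first, because these windows show what lay under the highest Myb signal. Each is the 101 bases centered on the summit (mm10), 5′ to 3′ on the strand of the gene. Capitals mark a match on either strand to the Myb consensus (CAACNG or TAACNG with G or T at the N) or to the NF-κB consensus (GGG, a purine, any pair of bases, a pair of pyrimidines and CC). No annotated untranslated region falls in these windows.
*Tnfaip3*, chr10:19015419-19015519, minus strand: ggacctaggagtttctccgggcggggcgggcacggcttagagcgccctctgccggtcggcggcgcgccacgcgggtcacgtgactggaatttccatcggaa
*Rela*, chr19:5637330-5637430, plus strand: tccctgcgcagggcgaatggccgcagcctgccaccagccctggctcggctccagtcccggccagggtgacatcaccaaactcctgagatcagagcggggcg
*Nfkbia*, chr12:55488796-55488896, minus strand: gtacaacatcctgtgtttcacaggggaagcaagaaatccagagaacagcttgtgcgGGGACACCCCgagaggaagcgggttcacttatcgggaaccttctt
*Nfkbiz*, chr16:55821212-55821312, minus strand: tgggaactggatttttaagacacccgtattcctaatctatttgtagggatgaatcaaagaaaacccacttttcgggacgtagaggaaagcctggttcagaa
*Nfkb2*, chr19:46305015-46305115, plus strand: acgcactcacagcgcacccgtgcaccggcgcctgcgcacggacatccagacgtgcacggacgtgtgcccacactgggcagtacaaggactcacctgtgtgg
*Relb*, chr7:19628699-19628799, minus strand: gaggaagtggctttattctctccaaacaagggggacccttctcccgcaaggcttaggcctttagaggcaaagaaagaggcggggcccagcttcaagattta
*Nfkb1*, chr3:135608050-135608150, minus strand: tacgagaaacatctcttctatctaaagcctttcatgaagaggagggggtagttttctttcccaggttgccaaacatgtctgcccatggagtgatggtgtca
*Rel*, chr11:23769727-23769827, minus strand: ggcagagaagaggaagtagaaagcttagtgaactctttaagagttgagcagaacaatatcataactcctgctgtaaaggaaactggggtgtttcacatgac
None of the 8 windows contained the Myb consensus, and only that of *Nfkbia* contained the NF-κB consensus.

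Among the other 32 peaks, either consensus lay within 50 bp of the summit in 4, and the windows of 3 are shown because they place a match at a member summit. That of *Nfkbiz*, with only the Myb consensus, was selected after the values had been seen.
*Tnfaip3* intron 2, chr10:19009388-19009488, minus strand: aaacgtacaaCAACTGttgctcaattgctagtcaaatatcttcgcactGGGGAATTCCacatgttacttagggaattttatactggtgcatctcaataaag
*Rela* downstream, chr19:5661260-5661360, plus strand: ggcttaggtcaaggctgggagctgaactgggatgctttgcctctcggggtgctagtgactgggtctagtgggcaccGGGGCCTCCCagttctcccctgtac
*Nfkbiz* intron 1, chr16:55837053-55837153, minus strand: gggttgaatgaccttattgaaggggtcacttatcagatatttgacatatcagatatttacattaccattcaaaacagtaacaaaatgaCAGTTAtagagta
The *Tnfaip3* intron 2 window was the only one of the 40 with both motifs. Its NF-κB match was centered 2 bp from the summit and its CAACTG 38 bp from it.

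All 8 genes had at least 1 Myb peak in their window, against 62.8% of the 21938 protein-coding genes by the same rule. The 8 genes were chosen with earlier results of these data known, so that the contrasts with all genes are descriptive only. The number of peaks ranged from 2 at *Rel* and *Relb* to 8 at *Tnfaip3*, with 4 at *Nfkb2*, 5 at *Nfkbia*, 6 each at *Nfkb1* and *Nfkbiz*, and 7 at *Rela*. All 8 also had a summit within 3 kb of an annotated start of their own, against 39.9% of protein-coding genes. When only the main start of each gene was counted (that of the transcript with the longest coding sequence), the number was 7, because *Nfkb1* had no summit within 3 kb of it. The share of protein-coding genes by main starts alone was not computed, and the 39.9% counts any annotated start.

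Of the 40 summits, 22 lay within 3 kb of a start of the member gene, 21 were inside the gene body, 10 were upstream and 9 were downstream. Introns held 17 of them and exons 2. The nearest annotated start belonged to the member itself for 31 peaks. The other 9 lay nearer to the start of a neighboring gene, all of them in the windows of *Nfkb2*, *Rela* and *Relb*. Other protein-coding genes numbered 5, 3 and 4 in these windows and 0 or 1 in each of the rest.

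**Figure D1:**
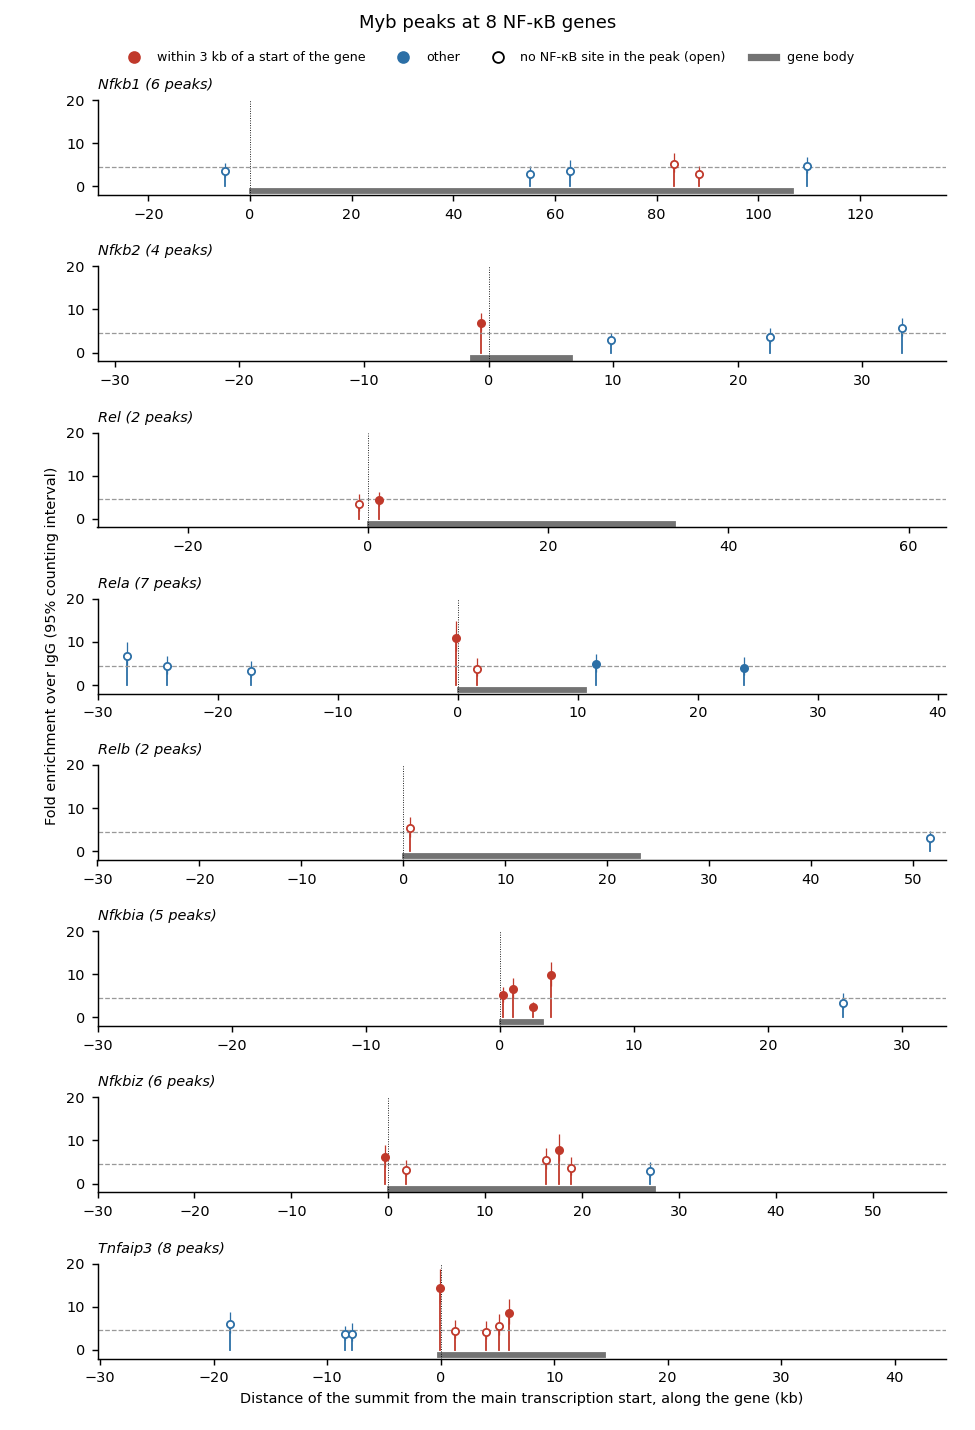
Myb peaks at each gene, by distance of the summit from the main transcription start along the gene (x axis, kb) and fold enrichment over IgG with its 95% counting interval (y axis). Red marks summits within 3 kb of a start of the gene, filled circles mark peaks with an NF-κB site, the gray bar is the gene body and the dashed line the median of all Myb peaks (4.51). The tallest peak is that of *Tnfaip3* at 14.4, and the peaks of *Nfkb1* lie away from its main start.

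Among the subunits, *Rela* had the strongest Myb signal. *Rela* encodes the main transactivating subunit of the canonical pathway (chr19:5637483-5648130, plus strand). Its strongest peak, chr19:5636244-5638227, had its summit 103 bp upstream of the main start, with 38 reads (exact Poisson 95% interval, 26.9–52.2) over a background of 1.76. Backgrounds, here and below, are in pileup units scaled so that 1 read counts 0.769, and not in reads. The fold enrichment was 10.98 (7.87–14.9), which exceeded 96.9% of all Myb peaks, and the −log10 q-value was 21.7. This peak had 1 NF-κB site 522 bp from the summit and 2 Myb consensus sites, the nearer 638 bp from it.

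A second *Rela* summit was in intron 4, 1633 bp past the main start, with 13 reads and a fold enrichment of 3.81. The other 5 peaks of the *Rela* window had the nearest start of another gene, *Kat5* (a histone acetyltransferase gene) for the 3 upstream peaks and *Sipa1* (a GTPase-activating protein gene) for the 2 downstream peaks. Their fold enrichment ranged from 3.23 to 6.81. Both *Sipa1* peaks had an NF-κB site, 80 bp from the summit in one and 30 bp in the other.

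*Nfkb2* (chr19:46304320-46312385, plus strand) encodes the precursor that is processed in the noncanonical pathway. It had 1 peak of its own, chr19:46303767-46305751, with 44 reads (32.0–59.1) over a background of 4 and a fold enrichment of 6.97 (5.12–9.29). The summit lay 631 bp upstream of the main start and 265 bp from the nearest start of another *Nfkb2* transcript. The peak held 6 separate NF-κB sites, the most of any of the 40, and 5 Myb sites. None of these lay within 100 bp of the summit. The nearest Myb site was a CAACGG 132 bp from it. The other 3 peaks of the window were nearest to *Psd*, *Fbxl15* and *Cuedc2*, with fold enrichments of 2.97, 3.57 and 5.63.

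*Relb* (chr7:19606217-19629438, minus strand) encodes the partner of the processed *Nfkb2* product. Its strongest peak, chr7:19628607-19628932, was in intron 1, 689 bp past the main start, with 20 reads (12.2–30.9) and a fold enrichment of 5.28 (3.35–7.97). It was narrow, at 326 bp, and contained neither consensus. The second peak of the window, at 28414 bp beyond the gene, was nearest to the start of *Zfp296*, with a fold enrichment of 2.97.

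*Nfkb1* encodes the precursor of the DNA-binding subunit of the most common dimer, and its gene was the longest of the 8 (chr3:135584655-135691547, minus strand). All 6 of its peaks were nearest to an *Nfkb1* start, but the summit nearest to the main start was 4821 bp upstream, with 17 reads and a fold enrichment of 3.52. Its strongest peak, chr3:135607272-135608293, was in intron 13, 170 bp from the start of a shorter protein-coding transcript and 83446 bp past the main start. It had 24 reads (15.4–35.7) and a fold enrichment of 5.22 (3.44–7.63). The peak had 4 Myb sites, the nearest 192 bp from the summit.

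The other peaks in *Nfkb1* were 2 in intron 6 and 1 in intron 16, at 2.94 to 3.67, and 1 lay 2641 bp downstream of the gene, at 4.67. For 2 of the 6, 1 in intron 6 and that in intron 16, the q-value was above 0.05. None of the *Nfkb1* peaks had an NF-κB site.

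*Rel* (chr11:23736847-23770970, minus strand) encodes c-Rel, the subunit most associated with lymphoid cells. It had the weakest strongest peak of the 8 genes and the widest peak of the 40. That peak, chr11:23767868-23771682, was 3815 bp wide and spanned the start, with its summit in intron 1 at 1193 bp past the start. It had 27 reads (17.8–39.3) over a background of 4 and a fold enrichment of 4.36 (2.94–6.25). The promoter peak nearest to the start had its summit 954 bp upstream, with 12 reads (6.20–21.0) and a fold enrichment of 3.41 (1.92–5.71). The wide peak held 2 NF-κB sites, 1 of them 90 bp upstream of the start, and 4 Myb sites, the nearest 312 bp from the summit.

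*Tnfaip3* encodes a ubiquitin-editing enzyme that shuts off signaling to IKK, and it had more peaks (8) and a higher fold enrichment than any of the other 7 genes (chr10:19000910-19015657, minus strand). Its strongest peak, chr10:19014720-19016194, was centered 59 bp upstream of the main start. It had 55 reads (41.4–71.6) over a background of 2, a fold enrichment of 14.4 (10.96–18.7) and a −log10 q-value of 36.0, and exceeded 99.0% of all Myb peaks. NF-κB sites were centered 52 and 62 bp from the summit on either side, just outside the window used for counting, and the nearest Myb site was a CAACTG 76 bp away.

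Inside *Tnfaip3*, 3 peaks were in intron 2. The intron 2 peak with both motifs, chr10:19008773-19009707, had 33 reads (22.7–46.3) and a fold enrichment of 8.50 (5.95–11.8), above 91.9% of all Myb peaks. The other 2 were at 4.18 and 5.49. A further peak, in intron 1, had 18 reads, a fold enrichment of 4.45 (2.76–6.85) and a Myb site within 50 bp of its summit. Upstream of the gene, 3 summits lay 7594 to 18293 bp outside the gene, at 3.60 to 5.98, and had neither motif anywhere in the peak. All 8 peaks were nearest to a *Tnfaip3* start.

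*Nfkbia* encodes IκBα, the inhibitor that is destroyed and resynthesized in each round of signaling. It is the shortest of the 8 genes (chr12:55489410-55492647, minus strand), and its strongest peak was past its end. That peak, chr12:55488262-55489537, had its summit 564 bp downstream of the gene, with 50 reads (37.1–65.9) over a background of 3, a fold enrichment of 9.87 (7.39–12.9) and a −log10 q-value of 24.8. It counted as a promoter peak only because its summit lay 2964 bp from the start of a short noncoding transcript of *Nfkbia*. An NF-κB site was centered 10 bp from the summit, as printed above, and no Myb consensus occurred anywhere in the peak.

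The promoter peak of *Nfkbia*, chr12:55492218-55493110, had its summit in exon 1, 235 bp past the start, with 32 reads (21.9–45.2) and a fold enrichment of 5.12 (3.57–7.15). Another peak in intron 2, 746 bp from that summit, had 28 reads and a fold enrichment of 6.48. Each of these had 2 NF-κB sites and no Myb consensus. The remaining peaks were in intron 5, with the lowest fold enrichment of the 40 (2.35, q = 0.139), and 22318 bp downstream (3.45).

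*Nfkbiz* encodes an atypical nuclear IκB protein that acts with NF-κB at a subset of its targets (chr16:55811375-55838899, minus strand). Its strongest peak, chr16:55820311-55821570, was in intron 3, 876 bp from the start of a shorter coding transcript, with 25 reads (16.2–36.9) and a fold enrichment of 7.90 (5.25–11.5). Its neighbors were a summit 1382 bp away in intron 2 (5.46) and one 1196 bp away in intron 3 (3.53). The peak at the main start, chr16:55838010-55839416, had 22 reads (13.8–33.3), a fold enrichment of 6.08 (3.94–9.03) and a summit 353 bp upstream. The last 2, in intron 1 and exon 14, had 10 reads each and q-values of 0.0978 and 0.187.

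**Figure D2:**
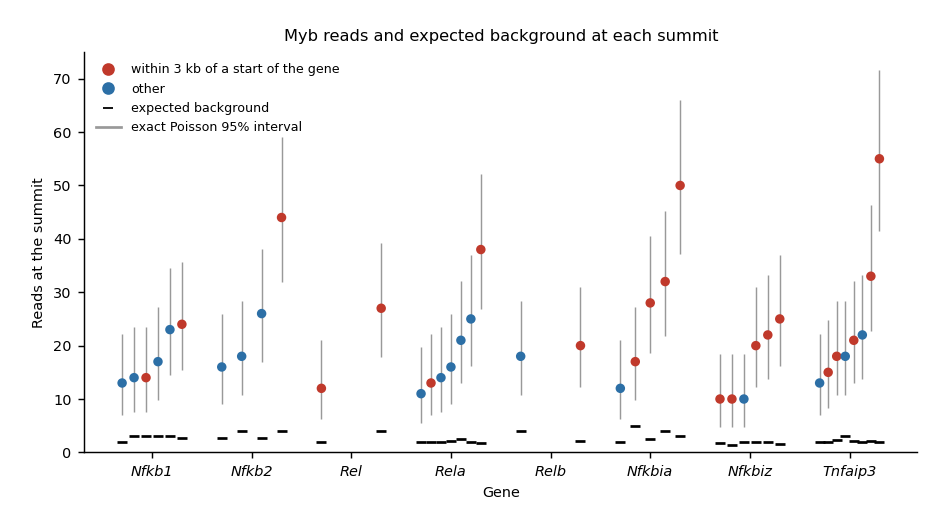
Reads at each of the 40 summits (y axis) by gene (x axis), in ascending order within a gene, with exact Poisson 95% intervals as gray lines and the expected background as black dashes. The background is in scaled pileup units, in which 1 read counts 0.769, so that it is not in the unit of the reads. Red marks summits within 3 kb of a start of the gene. The counts run from 10 to 55, and the backgrounds from 1.46 to 5.

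In the order of their strongest peaks the genes were *Tnfaip3* (14.4), *Rela* (10.98), *Nfkbia* (9.87), *Nfkbiz* (7.90), *Nfkb2* (6.97), *Relb* (5.28), *Nfkb1* (5.22) and *Rel* (4.36). Each of these fold enrichments had an interval that overlapped that of its neighbor in the order. The interval of *Tnfaip3* did not overlap those of *Nfkb2*, *Relb*, *Nfkb1* or *Rel*, and that of *Rela* did not overlap those of *Nfkb1* or *Rel*. The interval of *Nfkbia* did not overlap that of *Rel*. All of these intervals take the background as exact. By reads alone, the intervals of *Tnfaip3* (41.4–71.6) and *Nfkb2* (32.0–59.1) overlapped. That of *Rela* (26.9–52.2) overlapped those of *Nfkb1* (15.4–35.7) and *Rel* (17.8–39.3), and that of *Nfkbia* (37.1–65.9) overlapped that of *Rel*. The read interval of *Tnfaip3* still did not overlap those of *Relb*, *Nfkb1* or *Rel*. Among the 13785 protein-coding genes with a peak, for which the median of the strongest peak was 6.23, *Tnfaip3* stood at the 96.3 percentile, *Rela* at 89.6, *Nfkbia* at 85.4, *Nfkbiz* at 71.9 and *Nfkb2* at 61.1. *Relb*, *Nfkb1* and *Rel* stood below the median, at 34.0, 33.3 and 16.8.

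As a list, the 40 peaks were close to all Myb peaks in strength. Their median fold enrichment was 4.35 (interval of the median, 3.60–5.28, and interquartile range, 3.50–5.72), against 4.51 over all peaks, and 18 of the 40 lay above and 22 below the latter value. The top quartile of all peaks held 10 of them and the bottom quartile 16. The median of 18 reads at the summit was the same as that of all peaks. The q-value was above 0.05 in 5 of the 40 (12.5%, 4.19–26.8), against 7.24% of all peaks, and these 5 were in *Nfkb1*, *Nfkbia* and *Nfkbiz*. Such peaks exceed the q-value limit that the methods name for peak calling, and were kept here as deposited.

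Within the list, the 22 peaks near a start of their own gene had a median fold enrichment of 5.25, against 3.64 for the other 18, of which 6 lay at the promoter of a neighboring gene. Counting starts of any gene, 28 of the 40 (70%, 53.5–83.4) were promoter peaks, against 57.6% of all peaks. The median was 5.17 (3.81–6.08) for these 28 and 3.64 (3.23–4.67) for the other 12, and for all Myb peaks it was 4.54 within 3 kb of any start and 4.48 elsewhere. The members' peaks had a median width of 752 bp against 577 bp, and 12 of 40 (30%, 16.6–46.5) were wider than 1 kb against 19.6%.

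All 8 genes had more peaks per length than the median protein-coding gene. Per 100 kb of window, *Tnfaip3* had 10.7 peaks, *Rela* 9.91, *Nfkbia* 7.91, *Nfkbiz* 6.86, *Nfkb2* 5.88, *Nfkb1* 3.60, *Relb* 2.40 and *Rel* 2.12. The median protein-coding gene had 1.38, with quartiles of 0 and 3.98. The 3 inhibitor genes together had 19 peaks, or 8.43 per 100 kb, and all 19 were nearest to the gene's own start. The 5 subunit genes had 21 peaks, or 4.35 per 100 kb, of which 12 were nearest to the gene's own start. The median fold enrichment was 5.12 (interval of the median, 3.53–6.48) at the inhibitors and 3.99 (3.41–5.22) at the subunits, so that the intervals overlapped.

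**Figure D3:**
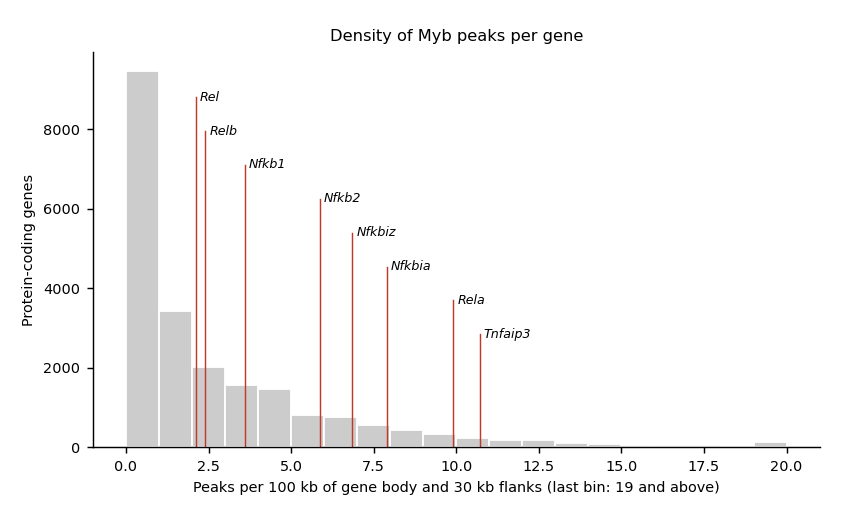
Myb peaks per 100 kb of gene body and 30 kb flanks (x axis) over 21938 protein-coding genes (y axis, number of genes, gray bars), with the 8 NF-κB genes as red lines whose heights carry no value. *Tnfaip3* (10.7) and *Rela* (9.91) lie in the sparse upper part of the distribution, and *Rel* (2.12) and *Relb* (2.40) are nearest to its middle.

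Several peaks lay close to the limit of 30 kb. Just inside it were a peak 26502 bp from *Nfkb2* (fold enrichment 5.63), one 27527 bp from *Rela* (6.81) and one 28414 bp from *Relb* (2.97). Just outside were a peak 31559 bp from *Nfkb2*, nearest to the microRNA gene *Mir146b* (5.75), one 35554 bp from *Rela* (2.82), and one 35833 bp from *Relb*, nearest to *Clptm1* (13.3).

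The Myb consensus was within 50 bp of the summit in 3 of the 40 peaks (7.5%, exact 95% interval, 1.57–20.4), in *Nfkbiz* and *Tnfaip3*, against 16.7% of all Myb peaks. The share over all peaks lies inside that interval. Over the whole length of the peaks, 22 of 40 (55%, 38.5–70.7) had at least 1 Myb site, against 58.6%, and the density was 1.36 sites per kb against 1.48. A difference in Myb motif content was therefore not detectable with 40 peaks. At *Nfkbia*, the 3 strongest peaks, with 28, 32 and 50 reads, had no match to this consensus anywhere. The window printed for the strongest of them does hold the shorter form AACNG.

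The NF-κB consensus was within 50 bp of the summit in 3 of 40 peaks (7.5%, 1.57–20.4), in *Nfkbia*, *Rela* and *Tnfaip3*, against 2.36% of all Myb peaks, again inside the interval. Within 100 bp the share was 15% (5.71–29.8) against 4.87%, which lay outside the interval, and within 25 bp it was 5% (0.611–16.9) against 1.01%, which lay inside it. Over whole peaks the interval did not reach the background, with an NF-κB site in 13 of 40 (32.5%, 18.6–49.1) against 15.0%. The peaks of 1 gene are not independent, and the genes and motifs were chosen with earlier results known. These intervals cover neither. Since the members' peaks were wider, the sites were also counted per length. There were 23 sites in 35.3 kb, or 0.651 per kb (exact Poisson interval, 0.413–0.977), against 0.249 per kb over all peaks, at a GC content of 50.2% and 49.1%.

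Most of the sites were in promoter peaks. In the 28 peaks within 3 kb of a start of any gene there were 22 sites, or 0.754 per kb (0.472–1.14), against 0.286 in all promoter peaks, and 12 of the 28 (42.9%, 24.5–62.8) had a site against 18.3%. The members' own starts accounted for 21 of these sites, in 22 peaks. In the 12 peaks away from any start there was 1 site, or 0.163 per kb (0.00412–0.907), against 0.186 in all other peaks. The promoter peak of *Nfkb2* alone held 6 of the 23 sites, and without it the density was 0.510 per kb (0.297–0.816). Neither sites in 1 peak nor peaks of 1 gene are independent, which the intervals do not cover.

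By gene, NF-κB sites were found in peaks of *Nfkb2*, *Nfkbia*, *Rel*, *Rela*, *Nfkbiz* and *Tnfaip3*, and not in those of *Nfkb1* or *Relb*. Subunit genes had a site in 5 of 21 peaks and inhibitor genes in 8 of 19. The motifs of other blood transcription factors, counted on both strands within 50 bp of the summit, were at shares whose intervals included those of all peaks. The ETS motif (GGAA after A or C and before A or G) was at 32.5% of the members' summits against 33.5%. The GATA motif (GATA after A or T and before A or G) was at 27.5% against 20.1%, and the C/EBP motif (TTNC and AA, with NN between them) at 27.5% against 23.1%. The RUNX motif (TGCGGT or TGTGGT) was at 10% against 12.2%, and the AP-1 motif (TGACTCA or TGAGTCA) at 2.5% against 1.93%.

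**Figure D4:**
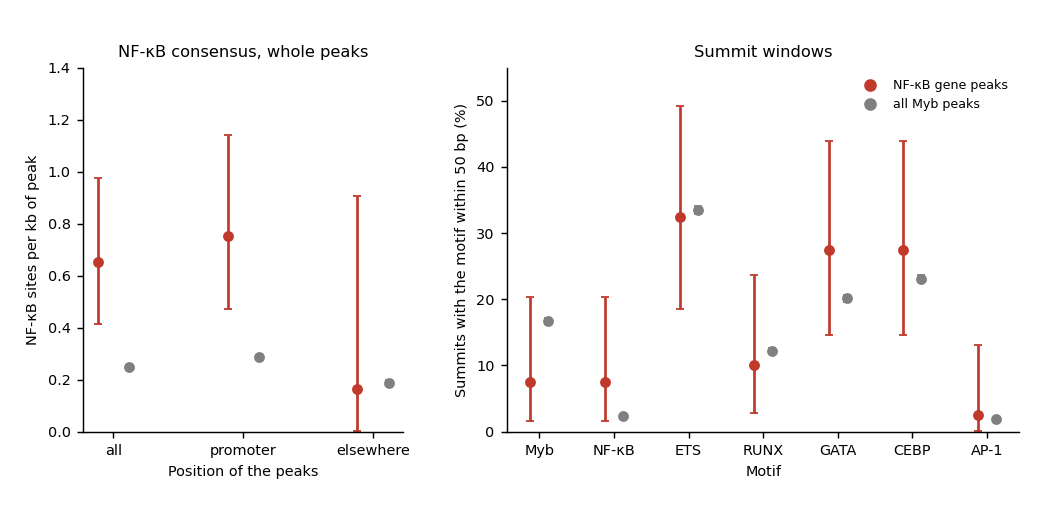
Left, NF-κB sites per kb of peak (y axis) for the NF-κB gene peaks (red) and all Myb peaks (gray), over all peaks, peaks within 3 kb of a start of any gene (promoter) and the rest, with exact Poisson 95% intervals. Right, percent of summits with each motif within 50 bp, with exact binomial 95% intervals, showing 7.5% against 16.7% for Myb and 7.5% against 2.36% for NF-κB.

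The promoters that lay under these peaks are shown next for 3 of the genes with an NF-κB site there, with the site in capitals. Promoter sequences from RefSeq (GRCm38.p6, the 250 bases before each start) matched 5 of the 8 genes, *Nfkb2*, *Nfkbia*, *Rel*, *Rela* and *Tnfaip3*, and not *Nfkb1*, *Nfkbiz* or *Relb*. Each is printed on the strand of the gene up to its last base before the start, without annotated untranslated bases.
*Nfkbia*, chr12:55492648-55492897: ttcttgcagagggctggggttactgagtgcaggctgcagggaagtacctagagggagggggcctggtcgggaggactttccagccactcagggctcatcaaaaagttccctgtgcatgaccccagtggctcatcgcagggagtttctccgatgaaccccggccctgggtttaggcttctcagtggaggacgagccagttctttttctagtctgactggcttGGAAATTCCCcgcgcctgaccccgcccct
*Tnfaip3*, chr10:19015411-19015547: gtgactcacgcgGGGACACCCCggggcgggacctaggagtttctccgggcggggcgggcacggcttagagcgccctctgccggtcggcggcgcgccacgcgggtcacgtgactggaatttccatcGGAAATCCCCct
*Rel*, chr11:23770971-23771219: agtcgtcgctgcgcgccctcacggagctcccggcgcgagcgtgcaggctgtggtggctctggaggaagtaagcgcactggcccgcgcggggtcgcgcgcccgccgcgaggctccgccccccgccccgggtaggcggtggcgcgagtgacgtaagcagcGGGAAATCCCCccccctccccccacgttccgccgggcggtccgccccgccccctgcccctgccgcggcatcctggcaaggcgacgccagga
The NF-κB consensus occurred in the promoters of 4 of these 5 genes, all except *Rela*, and in 8.23% of the 27025 genes of the RefSeq set. The Myb consensus occurred in none of the 5 (upper limit, 52.2%), and in 26.3% of the set. Counted from the start, the site was at −29 in *Nfkbia* and the sites at −125 and −12 in *Tnfaip3*. The summits of the Myb peaks over these promoters were 235 bp downstream of the start in *Nfkbia*, 1193 bp downstream in *Rel* and 59 bp upstream in *Tnfaip3*.

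Myb peaks were also frequent at other genes of the pathway. A list of 50 such genes held receptor adaptors, kinases, ubiquitin ligases and their antagonists, and other IκB proteins. Of these, 39 had a promoter peak (78%, 64.0–88.5), against the 39.9% of protein-coding genes given above. For some of them, *Bcl3* included, the strongest such peak was nearest to the start of another gene, and the 39.9% counts such peaks too. A peak in the window was found for 48 of the 50 (96%, 86.3–99.5), against 62.8% of protein-coding genes. The exceptions were *Tab3* and *Traf6*. This list, too, was drawn up with earlier results of these data known, so that its contrast with all genes is descriptive only. The strongest promoter peak of a listed gene had a median fold enrichment of 5.14, against 5.25 for all protein-coding genes with a promoter peak and 7.44 for the 8 genes above. In each of these medians any annotated start of the gene counts, which for *Nfkbia* brings in the peak past its end and for *Nfkb1* and *Nfkbiz* a peak at an internal start.

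The 5 listed genes with the strongest promoter peaks were *Tax1bp1*, *Tab1*, *Tbk1*, *Birc2* and *Nfkbil1*. *Tax1bp1*, whose product is an adaptor for the *Tnfaip3* enzyme, had 58 reads and a fold enrichment of 14.5 (11.1–18.7). Its interval overlapped almost completely with that of the *Tnfaip3* promoter peak. *Tab1*, a partner of the kinase upstream of IKK, was at 11.4 (8.50–15.0). The IKK-related kinase gene *Tbk1* was at 9.50 (7.16–12.4). The ubiquitin ligase gene *Birc2* was at 9.13 (6.98–11.7), and the IκB-like gene *Nfkbil1* at 9.05 (6.37–12.5).

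At the promoters of other IκB family genes the fold enrichment was 6.76 for *Nfkbid* (4.56–9.69), 6.20 for *Nfkbie* (4.01–9.21), 5.46 for *Nfkbib* (3.47–8.26) and 4.67 for *Bcl3* (3.05–6.89). The peaks at the main starts of *Nfkbia* (5.12, 3.57–7.15) and *Nfkbiz* (6.08, 3.94–9.03) had intervals that overlapped all 4 of these. The 4, however, are each the strongest peak within 3 kb of any annotated start. By that measure *Nfkbiz* was at 7.90 (5.25–11.5), which overlapped all 4. *Nfkbia* was at 9.87 (7.39–12.9), which overlapped all except *Bcl3*. The *Bcl3* peak was 1576 bp from a *Bcl3* start and nearest to the start of another annotated gene, *Gm16174*. The *Nfkbib* peak was 2120 bp from an *Nfkbib* start. In its window *Nfkbid* also had a peak of 10.01 away from its promoter, next to 9.87 for the peak past the end of *Nfkbia*. Of the IKK subunits, the catalytic subunit gene *Ikbkb* had a promoter peak at 5.24, with 20 reads and a −log10 q-value of 5.95, 159 bp from its start. That of the other catalytic subunit gene, *Chuk*, was at 3.39, with 11 reads and a −log10 q-value of 1.56. It lay 2891 bp from the start, close to the limit of 3 kb. *Ikbkg*, which encodes the regulatory subunit, had no promoter peak. Neither did *Ikbke*, the gene of an IKK-related kinase. *Ikbkg* had 2 peaks farther out and *Ikbke* 1.

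**Figure D5:**
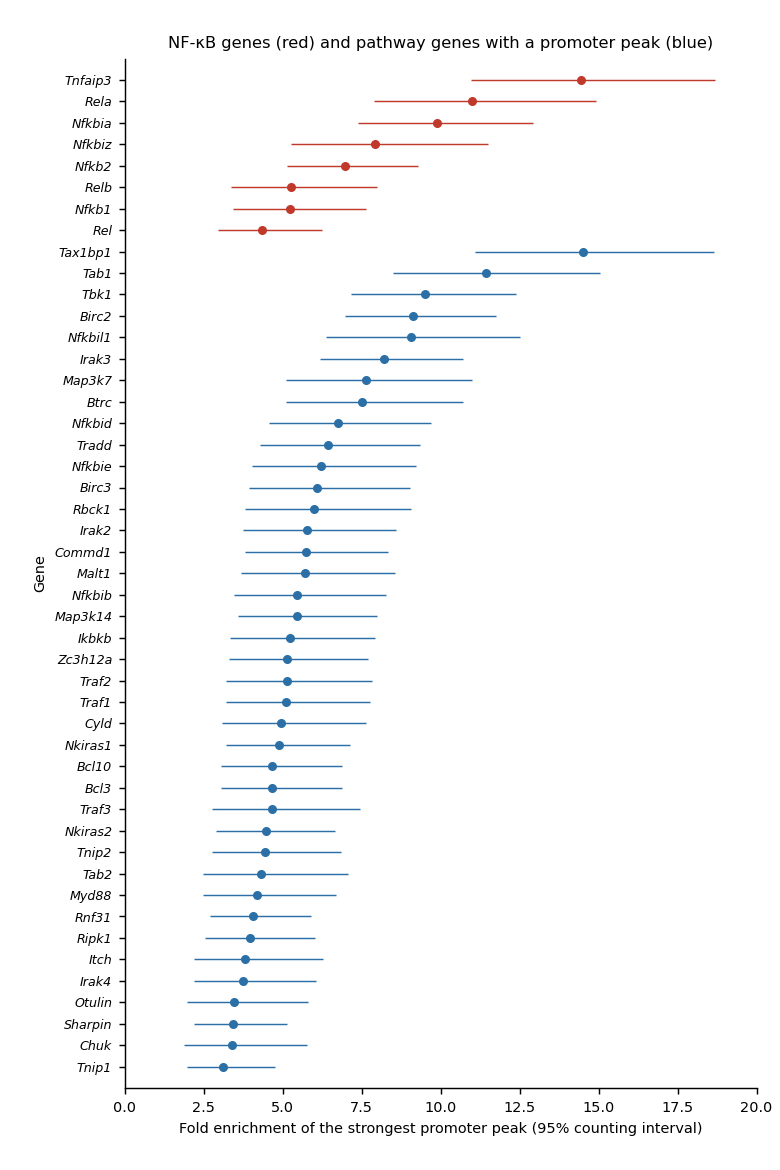
Fold enrichment over IgG of the strongest promoter peak (x axis, with its 95% counting interval) for the 8 NF-κB genes (red) and the 39 listed pathway genes with a promoter peak (blue), 1 gene per row. For *Nfkbia* the point is the peak past its end, which is within 3 kb of the start of a short transcript. The values run from 4.36 to 14.4 in the former and from 3.12 to 14.5 in the latter.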

How the data were processed

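Per the labels and the study's methods, the authors used Cutadapt (1.15) for trimming and BWA (0.7.13) for alignment to mm10, removed duplicates with Picard, and called narrow peaks with MACS2 (2.1.1.20160309) against IgG, keeping calls shared by pseudo-replicates. These tool names and versions are also in the submitters' processing notes. The deposited list gives, for each peak, a fold enrichment (a ratio of Myb pileup to local background, by the authors), and deposited −log10 p- and q-values. The methods name a q-value limit of 0.05, which 7.24% of the deposited peaks exceed, and the list was used as deposited. The deposited score, a rescaled p-value, and the authors' other fields were not used beyond the summit position.

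Coordinates are mm10, 1-based. Read numbers were recovered from fold enrichment and p-value with a pileup scale of 0.769, which gave whole reads in 100% of peaks (tolerance, 0.003), with more than 1 match in 0.0271%. The fold enrichment equals the reads times 0.769, plus 1, divided by the background in scaled pileup units plus 1. The interval of a fold enrichment follows from the Poisson interval of its reads, with the background taken as exact. Shares have Clopper-Pearson 95% intervals. Overlapping NF-κB matches were counted as 1 site. No test was possible with 1 library per antibody. The scripts, in Python 3.11.15 with NumPy 2.4.6, SciPy 1.17.1, pandas 2.3.3 and Matplotlib 3.10.9, were tested on simulated data.

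The 8 genes, the pathway list and the motifs were chosen with earlier results of these data known. All 8 genes are named, each with its strongest peak and the promoter peak nearest to its start where this is another. Other peaks are given by number and range or by their place. Of the pathway list, the 5 genes with the strongest promoter peak, the IκB family, the IKK subunits and *Ikbke* are named. Genes that only hold the nearest start are named for position. The sequence of 1 summit window is not reported here. Alternatives covered q-value thresholds, distance, promoter and motif windows, and motif forms.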

Additional observations from a re-analysis of the deposited data

How the results depend on the processing

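Of the values recomputed under other settings, 35 stayed within the spread set for them and 14 moved. For a share, median or rate the spread was its interval at the main settings, which is wide for the 40 peaks. For a count it was a fixed factor to either side. The number of pathway genes with a promoter peak stayed within it although it fell from 39 to 27 at −log10 q of at least 5. All 8 genes had a promoter peak at every q-value threshold tried, and 7 with a promoter window of 500 bp. The share of all protein-coding genes with a promoter peak was not recomputed at these settings. When −log10 q had to reach 5, 19 of the 40 peaks remained, with a promoter share of 84.2% and a median fold enrichment of 5.98, and a distance of 100 kb gave 82 peaks. With a promoter window of 1 kb the promoter share was 50%. The share of summits with the Myb consensus was 0% within 25 bp (upper limit, 8.81%, against 8.68% of all peaks), 25% within 100 bp (against 30.0%), and 52.5% for the shorter form AACNG (against 54.3%). With any bases allowed between GGG and CC the NF-κB share was 25% (against 15.3%), and within 100 bp the consensus itself was at 15% (against 4.87%). The share of protein-coding genes with a peak was 61.7%, 60.5% and 47.2% at −log10 q-values of at least 1.3, 2 and 5, and 52.6% and 46.4% at distances of 10 and 3 kb. The alternatives for NF-κB sites per kb and for main starts alone were chosen after seeing the data. NF-κB sites per kb ranged from 0.510 to 0.860. No paired analysis was possible because each antibody had 1 library and no test was made. Summits had 10 to 55 reads, 21 of the 40 fewer than 20, and the total depth of the library is unknown.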
